A study of Homo sapiens with 6 samples.

Results

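The data describe 10 genes of the Hippo pathway in A549, an established line of human lung adenocarcinoma cells: the kinases LATS1 and LATS2, the coactivators YAP1 and WWTR1, the transcription factor TEAD1, and CCN1, CCN2, ANKRD1, AMOTL2 and AJUBA. They were found as the probe sets whose platform annotation gave exactly 1 gene symbol, equal to a member, which yielded 32 of the 49293 probe sets tested and all 10 genes of 18244. The cells carried either a lentiviral short hairpin RNA against MRPL35, which encodes a large-subunit protein of mitochondrial ribosomes (KD, 3 arrays), or a lentiviral control hairpin (NC, 3 arrays). Both groups were therefore infected cells grown in the same medium, and the labels name neither the hairpin sequence, the time after infection nor any clone. The source name of NC replicates 2 and 3 gives other cell line numbers, whereas their characteristics give A549. The comparison asked how expression of these genes differed between cells with the MRPL35 hairpin and cells with the control hairpin. Other effects of the hairpin cannot be told apart from those of lowering MRPL35.

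Hippo is a kinase cascade that restrains growth. The STK3 and STK4 kinases, with the scaffold SAV1, activate LATS1 and LATS2, which phosphorylate YAP1 and its relative TAZ (gene WWTR1) and keep them out of the nucleus. When not phosphorylated, YAP1 and TAZ bind TEAD factors on DNA and switch on target genes such as CCN1, CCN2 and ANKRD1. In lung carcinoma cells the pathway is studied for its part in proliferation and in the response to cell contact and tension. The arrays measured mRNA only, so phosphorylation and the location of YAP1 were not measured.

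Values are log2 probe-set values as the authors deposited them, and changes are log2 KD minus NC ± standard error from limma with 3 arrays in each group. A gene is said to rise or fall where its Benjamini-Hochberg adjusted p was under 0.05. MRPL35 itself read 6.49, 6.44 and 6.56 in KD, against 8.16, 8.05 and 8.36 in NC (-1.69 ± 0.096, limma adjusted p = 3.77e-06). The first principal component held 79.0% of the variance over genes and split KD from NC. The second held 11.8%, and on it NC replicate 2 lay farthest from the rest. Results for YAP1, CCN2 and a further LATS2 probe set, where that array stood low, are therefore also given without it. The epithelial keratin KRT18 averaged 13.90 ± 0.040 in KD and 13.40 ± 0.056 in NC (SD, n = 3 each). Whether replicates were separate cultures is not stated in the labels, so the p-values reflect the spread between these arrays alone, which may be technical. With 3 arrays against 3 an exact two-sided permutation test of a single gene cannot go below 0.1, so calls rest on the fit across all genes.

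Of the 10 genes, LATS2 and YAP1 rose and CCN1 and CCN2 fell in KD, and 6 did not pass. The 4 calls stand next to a share of 33.5% of all genes tested (17.6% higher in KD and 15.9% lower in KD). The share among the members, 4 of 10, is thus near that of all genes. By level the members were bright, with a median at the 84.1 percentile of gene means, while the 33.5% counts dim genes too. The members' median change was -0.087, and that of all genes -0.018. Of the 32 member probe sets, 10 were higher and 6 lower in KD, whereas 30.6% of all probe sets were called (16.5% higher in KD, 14.1% lower in KD). The probe sets of a gene share its transcripts and are not independent of each other.

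**Figure D1:**
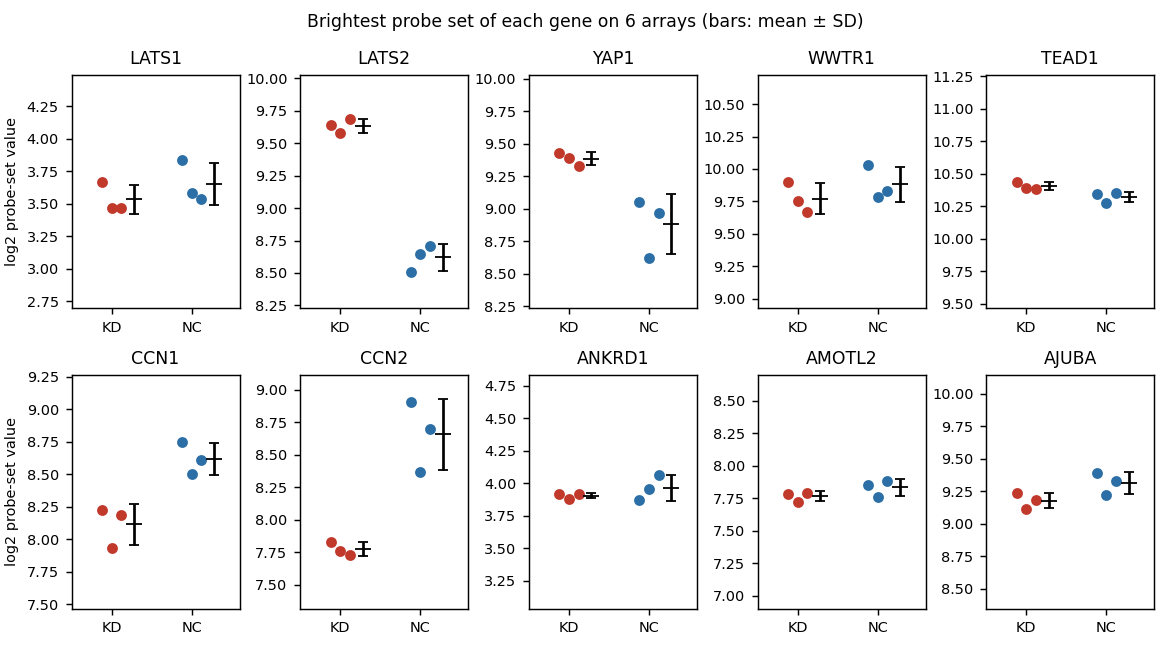
Log2 value of the brightest probe set of each of the 10 genes on the 3 KD arrays (red, left) and the 3 NC arrays (blue, right), with mean ± SD beside the points; each vertical axis spans the same log2 range. LATS2, YAP1 and TEAD1 lie higher and CCN1 and CCN2 lower on every KD array than on every NC array. TEAD1 did not pass, and the groups did not overlap in 44.7% of all genes.

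Of the kinases, LATS2 rose and LATS1 did not pass. LATS2, which phosphorylates YAP1 and TAZ and is itself a known YAP target in a feedback loop, read 9.64, 9.58 and 9.68 in KD and 8.50, 8.65 and 8.71 in NC. All KD arrays lay above all NC arrays. The change was 1.01 ± 0.084, a 2.02-fold higher level (limma adjusted p = 2.91e-05), the largest change among the 10 genes. A further LATS2 probe set read 7.34, 7.39 and 7.16 in KD and 6.26, 5.83 and 6.78 in NC. With all arrays it rose by the same amount (1.01 ± 0.20, limma adjusted p = 0.00448 over all probe sets). NC replicates 2 and 3 were nearly as far apart there as the groups were. Without NC replicate 2 this further probe set rose by less (0.78 ± 0.15), while the brightest rose by 1.03 ± 0.093. The remaining LATS2 probe set was dim, at the 21.2 percentile of all probe sets, and changed by 0.32 ± 0.13 (limma adjusted p = 0.0907).

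LATS1, the other kinase of the pair, gave little signal. On its brightest probe set the values were 3.66, 3.47 and 3.47 in KD and 3.84, 3.58 and 3.54 in NC, at the 15.3 percentile of gene means. The groups overlapped, and the change was -0.12 ± 0.11 (limma adjusted p = 0.462). Its other 2 probe sets were dimmer still and changed by -0.030 and 0.034. Background was not measured per probe set here, so these values do not show whether LATS1 changed.

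YAP1, the coactivator that LATS kinases restrain, rose. On its brightest probe set it was at 9.43, 9.39 and 9.33 in KD and 9.06, 8.62 and 8.97 in NC. The groups did not overlap, and NC replicate 2 was the lowest of the 6 arrays. The change was 0.50 ± 0.12, a 1.42-fold higher level (limma adjusted p = 0.00898), and 0.37 ± 0.083 on the same probe set without NC replicate 2 (limma adjusted p = 0.00814 over all probe sets, in a range of 0.00114 to 0.0792).

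All 8 YAP1 probe sets had a change above 0, although 11717922_a_at was at -0.19 without NC replicate 2. Of these, 6 rose, with changes of 0.42 to 0.74, and 7 had every KD array above every NC array, where 42.5% of all probe sets had groups that did not overlap. The largest change was on 11717924_a_at, at 7.67, 7.69 and 7.72 in KD and 7.27, 6.63 and 6.96 in NC (0.74 ± 0.14, limma adjusted p = 0.00368). The 11740548_a_at value changed by 0.60 ± 0.20 and did not pass (limma adjusted p = 0.0536). It read 8.17 in NC replicate 2, against 8.94 in NC replicate 3. Without NC replicate 2 its change was 0.34, and that of 11717920_a_at, a probe set that passed with all arrays, was 0.36 without that array and 0.62 with it. The call of 11717920_a_at (limma adjusted p = 0.0423) was lost without KD replicate 1 (0.123), KD replicate 2 (0.111) or KD replicate 3 (0.0637) and with median centring (0.0520) or treat against 0.2 (0.147), in a range of 0.0187 to 0.147 over the alternatives. The 11717922_a_at value ranged from 4.77 to 6.12 within NC, wider than within KD (5.19 to 5.73), and changed by 0.089 ± 0.30.

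WWTR1, which encodes TAZ, did not pass on its brightest probe set. It read 9.90, 9.75 and 9.67 in KD and 10.03, 9.78 and 9.83 in NC, with overlapping groups (-0.11 ± 0.099, limma adjusted p = 0.486). The next probe set gave the same change (-0.11 ± 0.099). The third, 11755099_a_at, read 8.18, 8.19 and 8.17 in KD and 8.86, 8.79 and 8.88 in NC, and fell (-0.66 ± 0.078, limma adjusted p = 0.000211). Its arrays were tight in both groups and well apart. With the mean over its 3 probe sets WWTR1 passed (-0.29 ± 0.077, limma adjusted p = 0.0151, in a range of 0.0151 to 1.0 over the alternatives). What the probe sets detect differently was not tested.

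TEAD1, the DNA-binding partner, did not pass on any of its 3 probe sets. The brightest read 10.44, 10.39 and 10.39 in KD and 10.34, 10.28 and 10.35 in NC. All KD arrays lay above all NC arrays, as in 44.7% of all genes, but by a change of only 0.083 ± 0.073 (limma adjusted p = 0.471). The others changed by -0.0078 and 0.029.

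**Figure D2:**
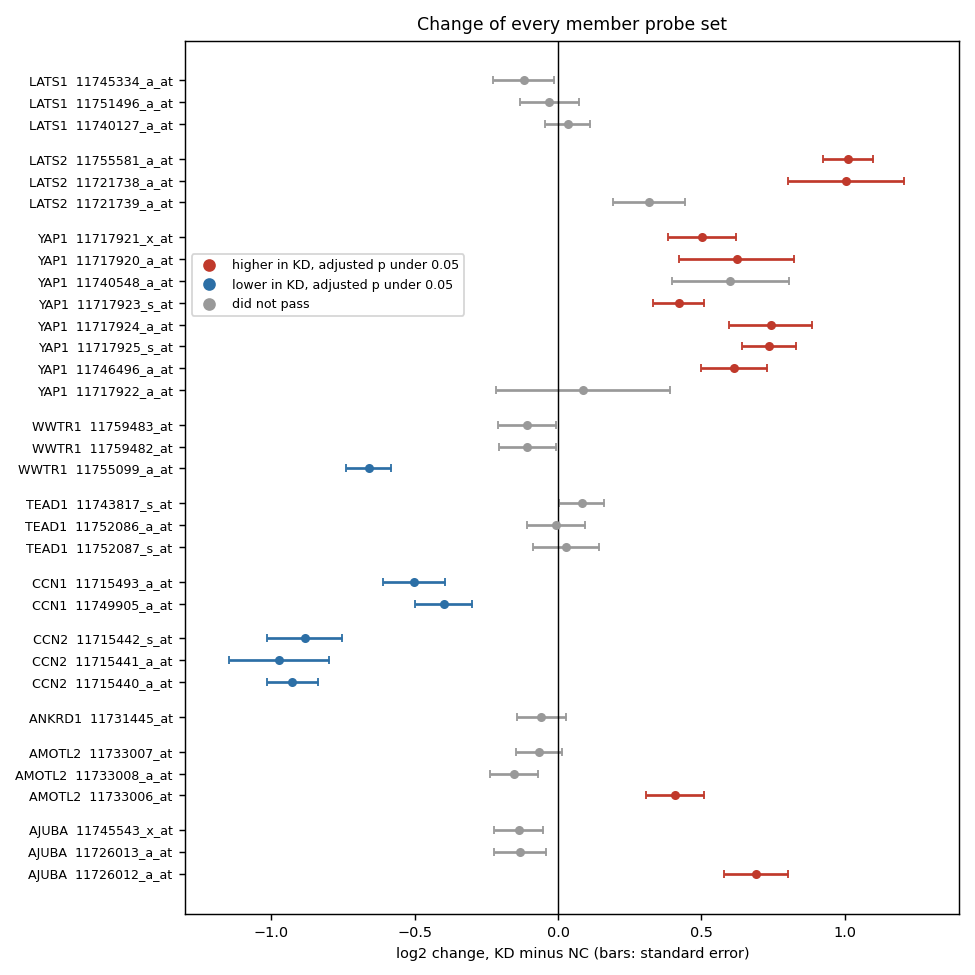
Change of each of the 32 member probe sets (log2 KD minus NC, horizontal axis; bars are standard errors), grouped by gene and ordered by brightness in NC within a gene. Red probe sets were higher and blue ones lower in KD at an adjusted p under 0.05 over all probe sets. CCN1 and CCN2 were lower on every probe set, YAP1 higher on 6 of 8, and WWTR1, AMOTL2 and AJUBA had 1 called probe set each.

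The matricellular genes CCN1 and CCN2, which encode secreted proteins that bind integrins and are standard readouts of YAP and TEAD activity, fell on all of their probe sets. CCN2 read 7.83, 7.76 and 7.73 in KD and 8.90, 8.37 and 8.70 in NC. Every KD array was below every NC array, with NC replicate 2 nearest to KD. CCN2 was 1.85-fold lower in KD (-0.88 ± 0.13, limma adjusted p = 0.000723). Without NC replicate 2 the change was -1.03 ± 0.088 (limma adjusted p = 3.01e-05). On 11715440_a_at the values were 6.47, 6.38 and 6.61 in KD and 7.41, 7.37 and 7.46 in NC (-0.93 ± 0.089), with no NC array apart. The third probe set changed by -0.97 ± 0.17.

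CCN1 read 8.22, 7.93 and 8.18 in KD and 8.74, 8.50 and 8.61 in NC. The groups did not overlap, and KD replicate 2 was the lowest array. CCN1 was 1.42-fold lower in KD (-0.50 ± 0.11, limma adjusted p = 0.00524). Its dimmer probe set 11749905_a_at read 7.79, 7.72 and 8.03 in KD and 8.27, 8.22 and 8.25 in NC (-0.40 ± 0.098, limma adjusted p = 0.0127). That call was lost without KD replicate 1 (limma adjusted p = 0.0509) or KD replicate 2 (limma adjusted p = 0.0573), in a range of 0.00332 to 0.161 over the alternatives.

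ANKRD1, an ankyrin repeat protein and a target of YAP and TEAD, was measured by a single dim probe set at the 20.2 percentile of gene means. It read 3.92, 3.88 and 3.92 in KD and 3.87, 3.95 and 4.07 in NC. The groups overlapped (-0.058 ± 0.081, limma adjusted p = 0.664), and at this signal a change may not have been measurable.

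The sequences before the annotated start are shown for YAP1, CCN2 and ANKRD1, the members whose window held the core TEAD motif. RefSeq promoters of GRCh38.p14 were found for 8 of the 10 genes, CCN1 and TEAD1 not being among them, and the 250 bases before the start were searched on both strands for GGAATG. Capitals mark each match, on the gene's strand, 5′ to 3′. The windows are chr11:102110197-102110446 on the plus strand for YAP1, chr6:131951373-131951622 on the minus strand for CCN2 and chr10:90921088-90921337 on the minus strand for ANKRD1.
YAP1: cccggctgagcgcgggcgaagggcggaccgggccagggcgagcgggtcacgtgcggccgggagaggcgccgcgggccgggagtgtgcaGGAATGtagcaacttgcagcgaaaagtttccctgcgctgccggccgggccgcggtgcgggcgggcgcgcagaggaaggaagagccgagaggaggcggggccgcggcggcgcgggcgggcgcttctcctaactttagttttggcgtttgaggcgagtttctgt
CCN2: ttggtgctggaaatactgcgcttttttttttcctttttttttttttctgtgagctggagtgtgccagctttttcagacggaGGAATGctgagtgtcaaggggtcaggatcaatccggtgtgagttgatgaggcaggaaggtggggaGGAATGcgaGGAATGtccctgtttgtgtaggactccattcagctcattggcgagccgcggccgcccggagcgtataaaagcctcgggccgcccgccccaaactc
ANKRD1: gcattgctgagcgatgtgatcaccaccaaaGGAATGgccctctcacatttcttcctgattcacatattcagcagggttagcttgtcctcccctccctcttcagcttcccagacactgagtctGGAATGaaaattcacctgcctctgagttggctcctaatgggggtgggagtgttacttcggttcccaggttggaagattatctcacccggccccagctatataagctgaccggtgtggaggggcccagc

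CCN2 held 3 copies of GGAATG, beginning 169, 104 and 95 bases before the start. ANKRD1 held 2, at 220 and 128 bases, and YAP1 held 1, at 162 bases. Of 27305 RefSeq promoter windows of the same length, 11.9% held at least 1 match, 0.963% at least 2 and 0.0952% at least 3. LATS1, LATS2, WWTR1, AMOTL2 and AJUBA had no match in this window. Only 1 annotated start per gene was searched, so matches near other starts would be missed. The windows of LATS1 and WWTR1 held 29.2% and 35.2% GC, against 53.2% or more in the other windows. The AP-1 motif, searched as TGANTCA with any base at N, was found once, as TGATTCA in ANKRD1 at 195 bases. It overlapped no TEAD match there, and the searched pattern is in 6.60% of all windows. The CArG box of the factor SRF, in 1.14% of all windows, was not found in the 8. CCN2, with 3 matches, fell, YAP1 with 1 rose, and ANKRD1 with 2 gave too little signal to tell. Binding was not measured.

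**Figure D3:**
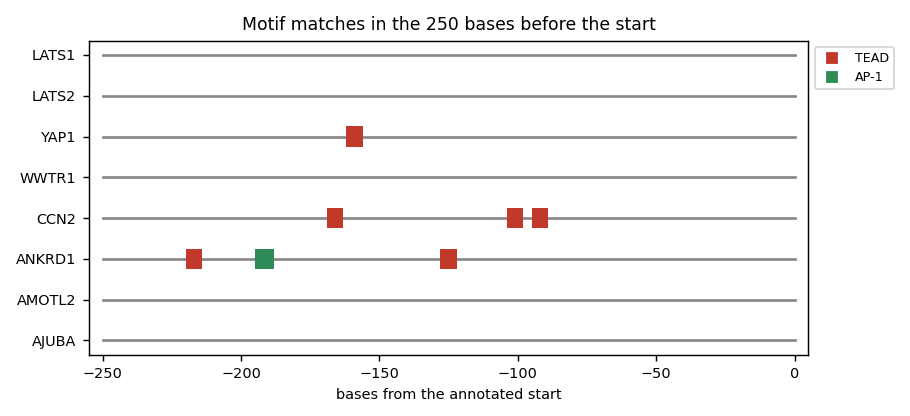
Position of TEAD (red) and AP-1 (green) motif matches in the 250 bases before the annotated start of 8 member genes; the horizontal axis is the distance from the start in bases. CCN2 held 3 TEAD matches, ANKRD1 held 2 and YAP1 held 1.

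AMOTL2 and AJUBA act on the cascade itself and, like WWTR1, differed between probe sets. AMOTL2, an angiomotin relative that holds YAP1 in the cytoplasm and is a YAP target too, read 7.78, 7.73 and 7.79 in KD and 7.86, 7.76 and 7.88 in NC on its brightest probe set. The groups overlapped (-0.067 ± 0.076, limma adjusted p = 0.589). The dimmest, 11733006_at, read 4.67, 4.58 and 4.75 in KD and 4.13, 4.42 and 4.23 in NC, and rose (0.41 ± 0.10, limma adjusted p = 0.0126). That call was lost without KD replicate 3 (limma adjusted p = 0.0594, in a range of 0.00189 to 0.150 over the alternatives). The third AMOTL2 probe set changed by -0.15 ± 0.082 without passing.

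AJUBA, a LIM domain protein that binds LATS kinases and limits their activity, read 9.23, 9.12 and 9.18 in KD and 9.39, 9.22 and 9.33 in NC on its brightest probe set. KD replicate 1 lay above NC replicate 2, and the change was -0.14 ± 0.082 (limma adjusted p = 0.260). The next probe set changed by -0.13 ± 0.090. In contrast, 11726012_a_at read 7.65, 7.48 and 7.47 in KD and 6.87, 6.64 and 7.02 in NC and rose (0.69 ± 0.11, limma adjusted p = 0.00138), with every KD array above every NC array. Of 11825 genes with several probe sets, 12.2% had a brightest probe set that was not called beside another that was, and 3 of the 9 members with several (WWTR1, AMOTL2 and AJUBA) were among them. All probe sets were called the same way for 15.2% of those genes, which here were CCN1 and CCN2.

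The kinases and scaffolds above LATS changed in both directions. Of 18 measured genes of a list of 20, 9 rose and 5 fell, 4 did not pass and the median was 0.37. Over all genes 33.5% were called and the median was -0.018. That share counts dim genes too, while the list's median level was at the 65.9 percentile of gene means. The list's counts are on each gene's brightest probe set and hold NF2 and MAP4K4, whose probe sets disagree. With the mean over each gene's probe sets, 6 rose and 4 fell. The list's mean level was 7.61 to 7.63 on the KD arrays. On NC replicates 1, 2 and 3 it was 7.58, 7.35 and 7.54, so NC replicate 2 widened the upward shift. Without that array 9 rose and 5 fell. SAV1, the scaffold of STK3 and STK4, rose most, at 7.92, 7.71 and 7.77 in KD and 6.77, 6.32 and 6.44 in NC (1.29 ± 0.12, limma adjusted p = 5.85e-05), and all 3 of its probe sets rose. STK4 fell on its brightest probe set (-0.92 ± 0.095) and on 4 of 6 in all, while 11756934_a_at, at 0.26 with every KD array above every NC array, and 11760475_at, at 0.015, did not pass. With the mean over its probe sets STK4 was at -0.54. Its relative STK3 rose (0.58 ± 0.089). MOB1A, which activates LATS kinases as a cofactor, rose (0.40 ± 0.083), and so did MAP4K4, a kinase that can act on LATS in parallel to STK3 and STK4 (0.76 ± 0.11). MAP4K4 rested on 2 of its 5 probe sets, as the other 3 changed by -0.19 to -0.021, and it did not pass with the mean over probe sets (0.27, limma adjusted p = 0.0791, in a range of 1.18e-05 to 0.0791). STK3 and MOB1A fell outside the rule for named genes, were chosen after their values were seen, and are given on their brightest probe set alone. Chosen likewise, STK38 (-0.63 ± 0.076), RASSF1 (-0.59 ± 0.097) and FRMD6 (-0.58 ± 0.12) fell. MAP4K5 (0.76 ± 0.089), STK38L (0.68 ± 0.12) and WWC1 (0.60 ± 0.10) rose by more than MOB1A.

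NF2, or merlin, a membrane-linked activator of the cascade, had probe sets that went in opposite directions. The brightest read 7.94, 8.05 and 7.99 in KD and 9.15, 9.08 and 9.24 in NC and fell (-1.16 ± 0.081, limma adjusted p = 1.12e-05). However, 3 of the other 6 rose, by 0.35 to 0.64, and 3 did not pass. With the mean of all 7 the change was 0.080 and did not pass (limma adjusted p = 0.502, in a range of 1.06e-08 to 0.502). Calls in opposite directions were seen for 1.64% of genes with several probe sets and for none of the 9 members by limma, so no direction is given for NF2 as a gene, although its brightest probe set counts among the 5 falls of the list.

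**Figure D4:**
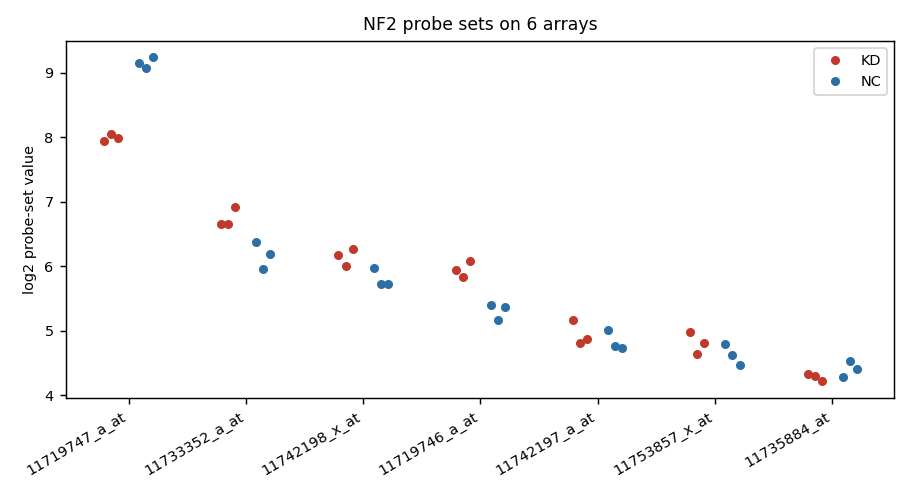
Log2 values of the 7 NF2 probe sets on the 3 KD arrays (red, left of each pair) and the 3 NC arrays (blue, right), ordered by brightness in NC. The brightest probe set was lower on every KD array, and 3 of the dimmer ones were higher.

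Of 16 measured relatives of the members and VGLL cofactors, 6 rose and 1 fell, 9 did not pass and the median was 0.16. These 7 of 16 stand beside the 33.5% called over all genes. VGLL4, which competes with YAP1 for TEAD and represses its targets, read 8.50, 8.47 and 8.43 in KD and 6.81, 6.63 and 6.92 in NC, a 3.21-fold higher level (1.68 ± 0.092, limma adjusted p = 3.28e-06), and all 3 of its probe sets rose. TEAD2, a relative of TEAD1, rose (0.78 ± 0.077) on all 4 of its probe sets. WTIP, a LIM protein related to AJUBA, rose (1.11 ± 0.084). CCN3, of the same family as CCN1 and CCN2, rose on its brightest probe set (1.02 ± 0.085) and on its other, 11747259_a_at (0.59 ± 0.088), while CCN1 and CCN2 fell. Without KD replicate 1, 2 or 3 11747259_a_at was the brighter probe set, and CCN3 was at 0.59, 0.61 and 0.56. AMOTL1, a relative of AMOTL2, was the single gene of this list that fell (-0.53 ± 0.088) and was named for that reason.

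Other targets of YAP and TAZ went both ways. A target signature used in the field left 17 genes after its 5 that are members here were set aside. Of these 17, 5 rose and 7 fell, 5 did not pass and the median was -0.076. Over all genes 17.6% were called higher and 15.9% lower, and the median was -0.018. Those shares count dim genes too, while the list's median level was at the 66.2 percentile of gene means. The falls were led by CRIM1, a membrane protein that binds growth factors, at 7.73, 7.49 and 7.54 in KD and 9.83, 9.75 and 9.78 in NC, a 4.59-fold lower level (-2.20 ± 0.088, limma adjusted p = 1.32e-06). Its dimmer probe sets 11736230_a_at (-0.71 ± 0.091) and 11751321_a_at (-1.65 ± 0.13) fell by less. With the mean over its probe sets CRIM1 was at -1.52. RBMS3, an RNA-binding protein (-1.55 ± 0.16), FOXF2, a forkhead factor (-1.21 ± 0.10), and IGFBP3, which binds insulin-like growth factors (-1.19 ± 0.094), fell as well. The IGFBP3 probe sets all have an s or x suffix, so IGFBP3 has no value without such probe sets. Among the rises were MYOF, a membrane repair protein (0.80 ± 0.076), and ASAP1, an ARF GTPase-activating protein (0.69 ± 0.072), both named after their values were seen. The mean level of the 17 lay at 7.65 to 7.68 on the KD arrays and at 7.85 to 8.01 on the NC arrays.

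CCN1, CCN2 and ANKRD1 are also known targets of SRF with its coactivators MRTF, which respond to actin. Of 16 measured SRF and MRTF targets, 3 rose and 4 fell, 9 did not pass and the median was -0.0016. Over all genes 33.5% were called, dim ones included, while this list's median level was at the 79.5 percentile of gene means. MYH9, the heavy chain of non-muscle myosin, fell to 8.44, 8.37 and 8.41 in KD, against 10.39, 10.40 and 10.53 in NC (-2.03 ± 0.077, limma adjusted p = 1.26e-06), and all 4 of its probe sets fell. CNN2, an actin-binding calponin, fell (-0.95 ± 0.093) on all 9. VCL, or vinculin (-0.83 ± 0.074), fell, and ACTA2, smooth muscle actin (0.85 ± 0.094), rose. Both calls rest on probe sets with an s suffix, which can hybridise to more than 1 transcript, and neither passed without such probe sets. The probe sets left were dim, at the 6.5 and 9.5 percentiles of all probe sets for ACTA2 and 34.0 and 23.0 for VCL. The brightest, with an s suffix, were at 86.3 and 98.1, so a change may not have been measurable on the dim ones.

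**Figure D5:**
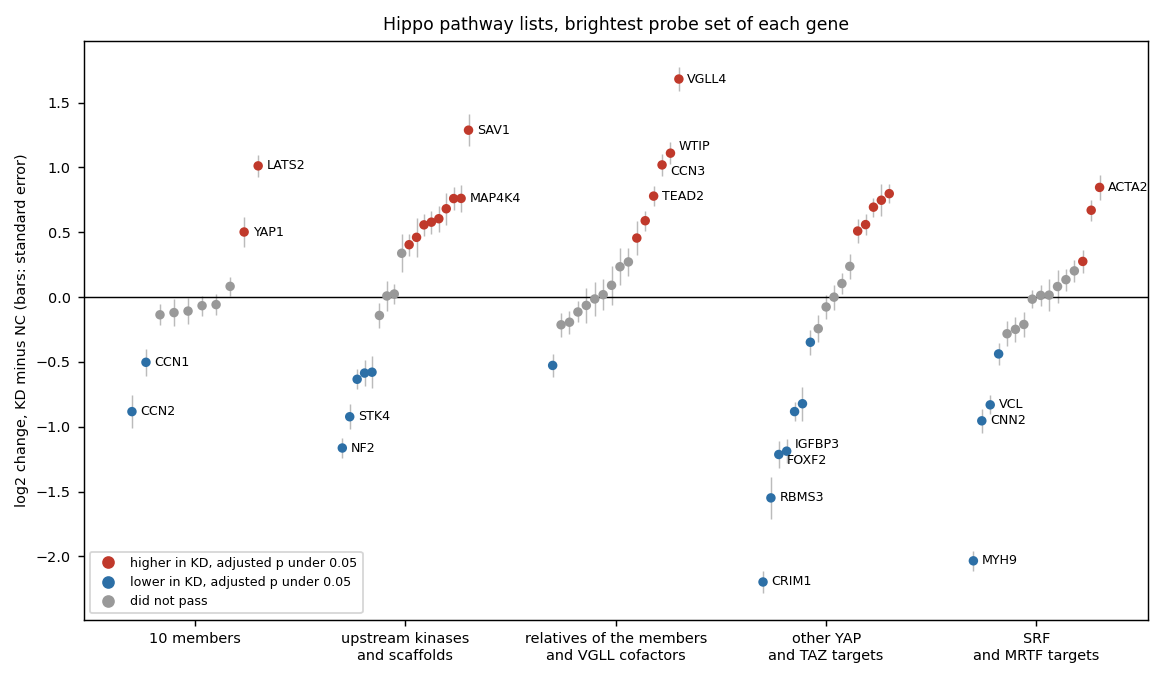
Change of each gene (log2 KD minus NC, vertical axis; bars are standard errors) on its brightest probe set, for the 10 members and 4 related lists, sorted within each list. Red genes were higher and blue genes lower in KD at an adjusted p under 0.05. Every list holds genes in both directions, with CRIM1 and MYH9 the lowest and VGLL4 the highest.

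Markers of fibroblasts and endothelium, cells that also express CCN1 and CCN2, had median levels at the 25.3 and 36.3 percentiles of gene means. The median of the leukocyte markers was at 36.8, with CD68 at 60.1. The 8 fibroblast markers had gene means of 2.56 to 5.84 in KD and 2.57 to 5.64 in NC, and their mean level was 4.20 to 4.29 over the KD arrays and 4.18 to 4.43 over the NC arrays. THY1 rose and PDGFRA fell among them, and the collagen genes did not pass. Of 5 endothelial markers limma called 0 (also 0 at an unadjusted p under 0.05), and of 4 leukocyte markers CD14 rose. Of 10 epithelial markers 7 rose and 0 fell by limma (also 0 at an unadjusted p under 0.05), beside 33.5% called over all genes. That share counts dim genes too, while the median level of these markers was at the 99.2 percentile of gene means. Their mean level was 11.38 to 11.40 in KD and 10.81 to 10.86 in NC. CDH1, or E-cadherin, whose contacts are an upstream input of Hippo, was among the 7 (1.31 ± 0.12). So were the enzymes AKR1C1 (1.13 ± 0.078), ALDH3A1 (1.01 ± 0.077) and ALDH1A1 (0.34 ± 0.093), while KRT7, EPCAM and NAPSA did not pass. In such bulk RNA, fewer cells of a type and less RNA per cell cannot be told apart. What part these shifts had in the changes of CCN1, CCN2, LATS2 and YAP1 was not tested.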

How the data were processed

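Expression was measured with 6 Affymetrix arrays, 3 KD and 3 NC, grouped and numbered by their titles. Per the labels' protocols, biotinylated cRNA was made from Trizol-extracted total RNA. The authors deposited a table of 49395 probe sets, taken as log2 values from its range (2.05 to 14.32, array medians 5.49 to 5.55). Summarisation, normalization and log base are not given in the sources used here. A change is relative to the other genes on the array (median change -0.018).

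The platform annotation gave 1 symbol for 45278 probe sets, several for 1333 and none for 2682, and 102 controls were left out. Each of 18244 genes was represented by its brightest probe set over the 6 arrays, and no dim gene was removed. limma 3.58.1 in R 4.3.3 (lmFit, eBayes, two-sided, group as only term) was fitted once over the genes and once over all 49293 probe sets, with Benjamini-Hochberg adjustment over each and a threshold of 0.05. Values of a gene come from the first fit and those of its further probe sets from the second. Figures used matplotlib 3.10.9.

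The members and lists were chosen with earlier results of these data known. The rule named MRPL35, all members and up to 4 genes per list with the largest changes among those that passed with groups that did not overlap. The steps were tested on data made with known changes. The alternatives were quantile normalization, median centring, trend with robust fitting, array weights, a replicate block, leaving out each array, dim features or x and s probe sets, the mean over probe sets, treat against 0.2 and a 1.5-fold threshold. The number of arrays limits the precision.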

Additional observations from a re-analysis of the deposited data

How the results depend on the processing

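LATS2, CCN2, CCN1 and YAP1 kept their direction under all 16 alternatives. LATS2 stayed at 0.78 to 1.06, CCN2 at -1.03 to -0.76, CCN1 at -0.57 to -0.41 and YAP1 at 0.36 to 0.62, with the brightest probe set picked again under each alternative. YAP1 did not pass treat against 0.2 (limma adjusted p = 0.0699, in a range of 0.000566 to 0.0699), and YAP1 and CCN1 did not reach 1.5-fold. AMOTL2 and AJUBA, which did not pass, ranged from -0.10 to 0.063 and from -0.18 to 0.14. The member genes called higher numbered 1 with treat, and 1 higher and 1 lower at 1.5-fold, while 6 member probe sets were higher with treat. At 1.5-fold, 3 other YAP and TAZ targets and 5 upstream kinases and scaffolds were higher, and 0 relatives and VGLL cofactors were lower by limma, since AMOTL1, with an adjusted p under 0.05, changed by less. Over all genes 1931 were higher and 1826 lower with treat, and 1417 and 1415 at 1.5-fold. Over all probe sets these counts were 4680 and 4144 with treat, 3654 and 3443 at 1.5-fold, and 5265 and 4393 without x and s probe sets, where fewer were tested. NF2 reversed to 0.080 with the mean of its probe sets. Deviations of same-numbered KD and NC arrays from their group means correlated at 0.254, 0.265 and -0.096. The labels do not say whether same-numbered arrays were paired, and these values do not settle it. With the replicate block 12 member probe sets were higher, 6 lower, and the member genes numbered 2 and 2, with LATS2 11721739_a_at and YAP1 11740548_a_at added among the probe sets. Without 1 array each, member probe sets higher numbered 8 to 11. Signal limits LATS1 and ANKRD1, both dim.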
